A study of Homo sapiens with 3 samples.

Results

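Of the 68724 H3K27ac regions under 10 kb on chromosomes 1 to 22 of LNCaP cells, 23253 lay wholly inside a region of H3K4me1, with every base covered. These enclosed regions were chosen by position and width from the deposited region lists. They made up 33.8% of the regions of that size (exact 95% interval 33.5% to 34.2%), out of 71078 H3K27ac regions in the whole list. A further 34163 regions (49.7%) were partly covered by H3K4me1 and 11308 (16.5%) were not covered at all.

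LNCaP is a human prostate cancer line that came from a lymph node metastasis and responds to androgens. The labels name no treatment. Chromatin was precipitated with an antibody to H3K27ac in the first sample and to H3K4me1 in the second, and the third was input chromatin, with 1 library each. The input, and the normal prostate and PC3 cells that the series design names, were not analysed here. With 1 library per mark there is no replicate spread and no test. The values describe 2 lists of regions, and intervals cover counting error only, as if neighbouring regions were independent, which they are not. The lists hold neither read counts nor expression values, so depth is unknown and the cell line could not be checked against marker genes.

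H3K4me1 is laid down by the MLL3 and MLL4 methyltransferases and marks enhancers, both those in use and those that are only primed. H3K27ac is laid down by p300 and CBP and marks enhancers and promoters in use. At an active enhancer the acetylation typically sits on the nucleosomes beside the bound transcription factors, with H3K4me1 on the same nucleosomes and beyond them. At active promoters H3K4me1 is usually replaced near the start site by trimethylation and is found to either side. An acetylated region without any break in H3K4me1 is therefore the arrangement described for active enhancers, but the lists alone do not show which regions are enhancers.

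Since cover and width chose the enclosed regions, the following widths are a description. The enclosed H3K27ac regions ranged from 550 to 9850 bp, with a median width of 1550 bp and quartiles of 1000 and 2200 bp, and totalled 41.6 Mb. The partly covered regions had a median of 1950 bp and totalled 78.4 Mb, and the uncovered regions had a median of 1000 bp and totalled 12.96 Mb. The enclosed regions held 31.3% of the H3K27ac length under 10 kb.

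Being enclosed varied little with width among narrow regions. The share was 35.5% under 1 kb (5339 of 15035 regions), 36.8% at 1 to 1.5 kb, 36.2% at 1.5 to 2 kb and 33.1% at 2 to 3 kb. Among wider regions it was lower, at 26.8% for 3 to 4 kb and 23.6% for 4 to 10 kb (1183 of 5010 regions). Partial cover went the other way, from 27.9% of regions under 1 kb to 75.4% at 4 to 10 kb. Regions without cover were 36.6% of those under 1 kb and 0.938% of those at 4 to 10 kb.

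**Figure D1:**
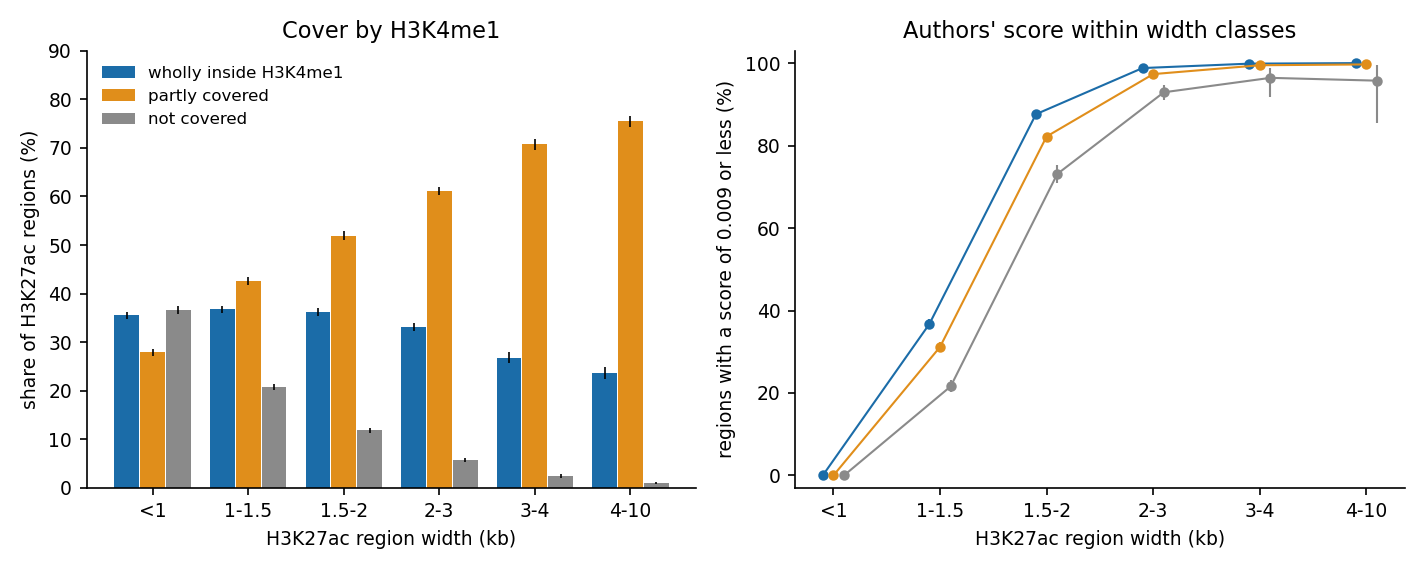
Left, share (%) of H3K27ac regions of each width class (kb) that were wholly inside H3K4me1, partly covered or not covered. Right, share (%) of each of these groups with an authors' score of 0.009 or less. Bars and points carry exact 95% intervals over regions. The enclosed share is 35.5% under 1 kb and 23.6% at 4 to 10 kb, and the enclosed regions have the largest share of low scores from 1 to 3 kb.

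Many regions lay close to the limits of the rule. At the outer side of the cover limit, 2239 partly covered regions had only 50 bp outside H3K4me1, which is 1 step of the grid on which all regions start and end, and 2135 had 100 bp outside. At the inner side, 1687 enclosed regions touched an edge of their H3K4me1 region and 1580 stopped 50 bp short of an edge. Their median widths, in the same order, were 1650, 1600, 1400 and 1550 bp. A score of 0.009 or less was found in 62.1% of the regions with 50 bp outside (interval 60.03% to 64.1%) and 57.99% of those with 100 bp outside. It was found in 54.4% of those touching an edge (52.0% to 56.8%) and 58.9% of those 50 bp short of an edge. At the width limit, the widest enclosed regions measured 9850 bp, and 62 autosomal regions of 10000 to 27750 bp, 14.2% of the 436 regions of 10 kb or more, were also wholly covered but fall outside the limit.

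By the rule, each enclosing H3K4me1 region was at least as wide as any H3K27ac region it enclosed. Over whole autosomes the order was the other way. The median width per autosome was 1000 to 1150 bp for H3K4me1 regions and 1500 to 1900 bp for H3K27ac regions. The 23253 enclosed regions lay in 21245 H3K4me1 regions, 10.7% of the 197700 autosomal ones, and each lay in a single one. These enclosing regions ranged from 550 to 42850 bp, with a median width of 3000 bp and quartiles of 2200 and 4300 bp. H3K4me1 regions that met H3K27ac without enclosing a region under 10 kb had a median of 1300 bp (46587 regions), and those that met no H3K27ac had a median of 900 bp (129868 regions). A wide region is more able to enclose another, so this order is in part built into the rule. The enclosing regions totalled 77.5 Mb, or 26.9% of the autosomal H3K4me1 length.

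Enclosing was more frequent among wider H3K4me1 regions. Among H3K4me1 regions under 1 kb, 182 of 88300 (0.206%) enclosed an H3K27ac region, and 2.62% did so at 1 to 1.5 kb. The share was 32.5% at 2 to 3 kb, 54.7% at 3 to 4 kb, 68.2% at 4 to 6 kb and 80.4% at 6 to 10 kb. At 10 kb or more it was 82.5% (541 of 656 regions), and all the other regions of that width met H3K27ac without enclosing a region under 10 kb.

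**Figure D2:**
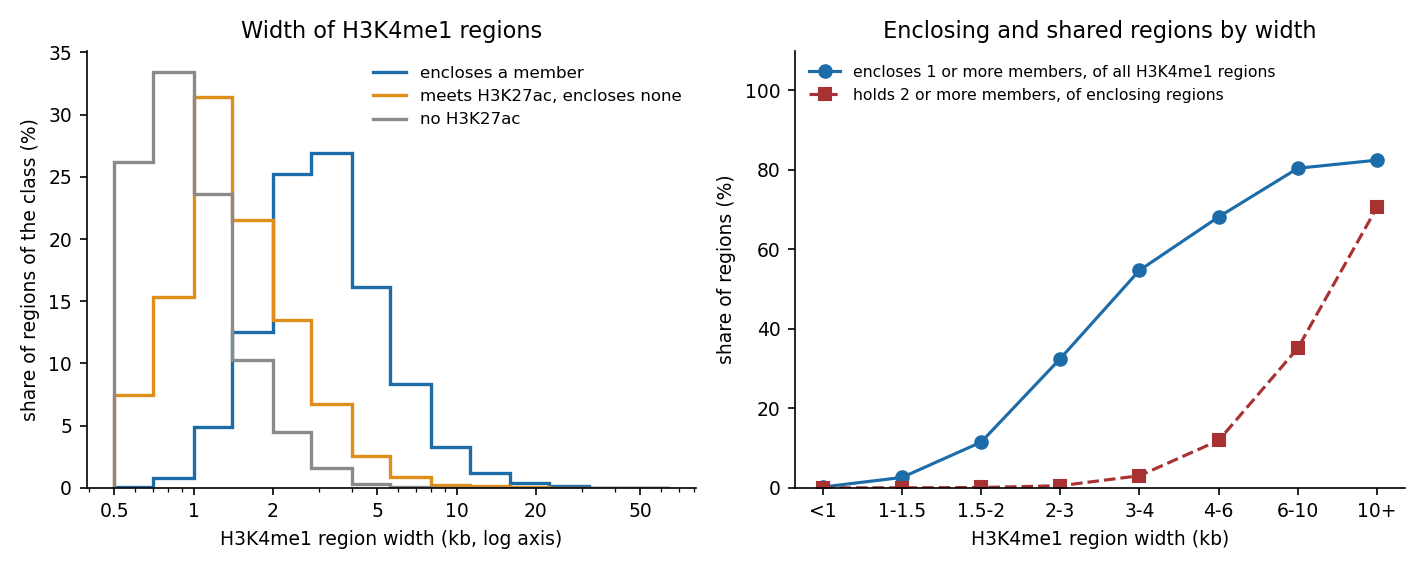
Left, widths (kb, log axis) of H3K4me1 regions, as a share (%) of each class. The classes enclosed an H3K27ac region under 10 kb, met H3K27ac without enclosing such a region, or met none. Right, share (%) of all H3K4me1 regions of a width class that enclosed at least 1 member, meaning an enclosed H3K27ac region, and share of the enclosing regions that held 2 or more. Enclosing regions centre on 3000 bp, and both shares are highest at 10 kb or more, with 82.5% and 70.6%.

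An enclosed region took up about as much of its H3K4me1 region as it left free. It filled a median of 50.5% (quartiles 34.0% and 67.3%). The free H3K4me1 length around it, both sides together, had a median of 1450 bp (quartiles 800 and 2650 bp). Wider enclosed regions lay in wider H3K4me1 regions, as an enclosure cannot be narrower than its member, and filled more of them. Those under 1 kb lay in H3K4me1 regions with a median of 2150 bp and filled 34.0%. Those of 1.5 to 2 kb lay in regions of 3050 bp and filled 55.7%, and those of 4 to 10 kb lay in regions of 7900 bp and filled 68.0%. The median free length changed less, from 1400 bp for the narrowest class to 1350 bp at 1.5 to 2 kb and 2350 bp for the widest.

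Most enclosed regions lay towards the middle. Their midpoint fell between 25% and 75% of the length of the enclosing region in 20732 cases (89.2%, interval 88.8% to 89.6%), which a wide region in a narrow enclosure must do. The left and right flanks were alike, each with a median of 650 bp and quartiles of 300 and 1200 bp. Where the flanks were unequal, the left was the shorter in 11225 of 22455 regions (50.0%), so the position showed no side along the chromosome. The nearer edge was a median of 400 bp away and the farther edge 1000 bp. Both flanks reached 500 bp in 41.4% of the regions and 1000 bp in 14.2%.

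Position was then read against the room available, which removes the effect of width. For each enclosed region the free length was taken as the range over which it could have slid, and the share in the middle 20% and in the outer 40% of that range (20% at each end) was compared with an even spread over the open grid positions. Among the 15599 regions that were the only H3K27ac region of their H3K4me1 region and had 500 bp or more of free length, 29.2% lay in the middle 20% (interval 28.5% to 29.9%), where an even spread would give 20.1%. The outer 40% held 26.6% (25.9% to 27.3%), where an even spread would give 41.6%. Lone regions thus sat more centrally than an even spread, but the part of choosing lone regions in this was not tested. Among all 20743 enclosed regions with that free length, lone or not, 25.03% lay in the middle 20% and 33.4% in the outer 40%. An even spread would give 20.1% and 41.4%. With 4 kb or more of free length, 13.4% of 3352 such regions lay in the middle and 54.1% in the outer 40%. There an even spread would give 19.99% and 40.3%, so the order was reversed.

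The central tendency of lone regions was greatest at intermediate room. With 1 to 2 kb of free length, 32.4% of 7021 lone regions lay in the middle 20% and 22.7% in the outer 40%. With 2 to 4 kb the values were 29.2% and 22.1% of 3353 regions. With 4 kb or more, 20.1% of 507 regions lay in the middle (interval 16.7% to 23.9%), and an even spread would give 19.97%. The outer 40% of that class still held fewer regions, 32.3%, than the 40.5% of an even spread. The central lone regions were no wider than those near an edge. At 1 to 4 kb of free length, the median width was 1450 bp for the 3251 regions in the middle and 1600 bp for the 2336 regions in the outer 40%. A score of 0.009 or less was found in 56.0% of the middle regions (interval 54.3% to 57.8%) and in 61.7% of the outer regions (59.7% to 63.7%).

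**Figure D3:**
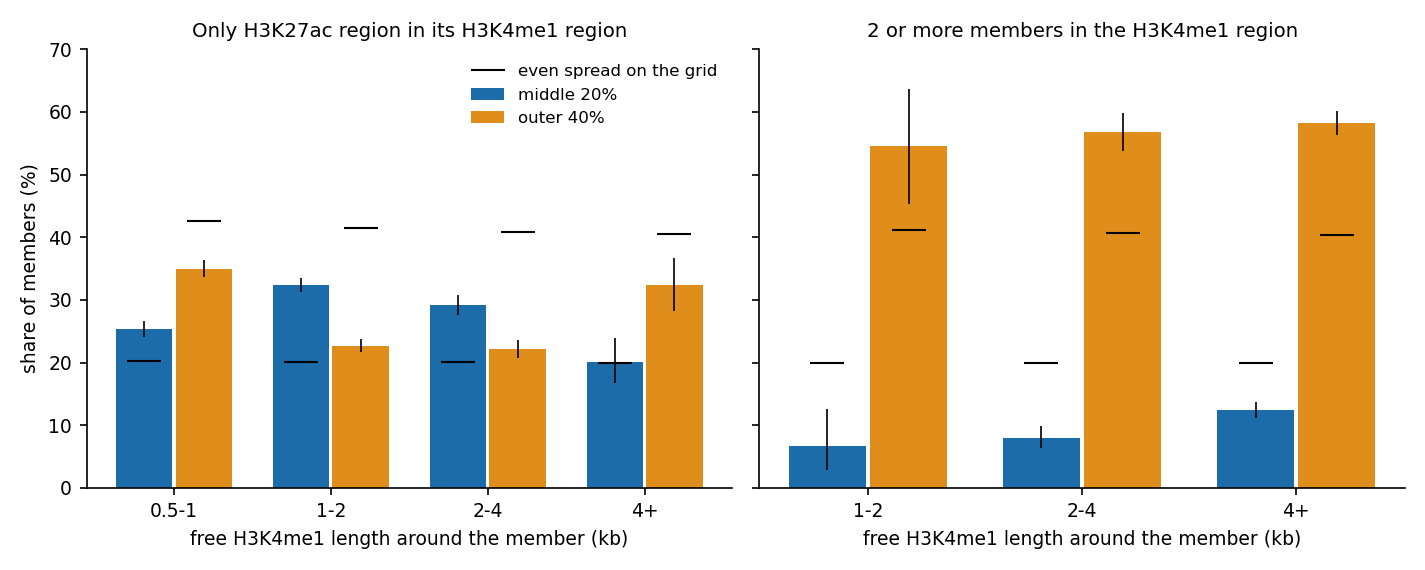
Share (%) of enclosed regions in the middle 20% and in the outer 40% of the H3K4me1 length over which they could slide, by that free length (kb). Bars carry exact 95% intervals and black marks give an even spread over the grid. Lone regions exceed the mark in the middle up to 4 kb, whereas regions that share their H3K4me1 region exceed it at the ends.

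Most enclosing regions held a single member. Of the 21245 enclosing regions, 19570 (92.1%) held 1 enclosed H3K27ac region, 1425 (6.71%) held 2, 191 held 3, 40 held 4, 15 held 5, 3 held 6 and 1 held 7. The 1675 regions with 2 or more (7.88%) contained 3683 enclosed regions, or 15.8% of all. With H3K4me1 regions within 500 bp merged, 12.3% of enclosing regions held 2 or more. In 1667 enclosing regions (7.85%) there was a further H3K27ac region that crossed an edge or was 10 kb or wider. Counting these, 18087 enclosed regions (77.8%) were the only H3K27ac region in their H3K4me1 region.

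Shared enclosing regions were wide. A region must have room for its separate members, so the order of widths and the rise in sharing are in part built into the rule. Enclosing regions with 1 member had a median width of 2850 bp, those with 2 had 6350 bp and those with 3 or more had 12525 bp. The share with 2 or more members was 0.535% at 2 to 3 kb, 3.05% at 3 to 4 kb, 11.9% at 4 to 6 kb, 35.2% at 6 to 10 kb and 70.6% at 10 kb or more. H3K27ac covered a similar part of the enclosing region whatever the number, with medians of 57.4% for 1 member, 61.1% for 2 and 63.1% for 3 or more. The members themselves were somewhat wider where there were more, with medians of 1500, 1650 and 1850 bp and upper quartiles of 2150, 2500 and 3100 bp. Of the members of 4 to 10 kb, 31.7% were in shared regions, against 14.5% of those under 1 kb.

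Neighbours within 1 enclosing region lay close together. The 2008 gaps between them, where H3K4me1 continued, had a median of 700 bp (quartiles 300 and 1412 bp), and 39.8% were 500 bp or less. These gaps were measured between members, so a long gap can hold an H3K27ac region of 10 kb or more. Neighbouring H3K27ac regions over all autosomes were separated by a median of 13400 bp, a value that is not limited by the width of an H3K4me1 region. In enclosing regions with 2 members, the gap had a median of 650 bp and the outer flanks a median of 800 bp, as the mean of both sides. The gap was wider than both flanks in 471 of 1425 cases (33.1%). The 2 members were unequal, with a median of 1150 bp for the narrower and 2300 bp for the wider. Members that shared a region lay towards its ends, with 57.7% of 3683 in the outer 40% and 10.9% in the middle 20%, as neighbours that cannot overlap must in part do.

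The enclosing regions with the most members showed different internal patterns. There were 4 with 6 or 7 members, and from the 15 tied at 5 members the one with the greatest member length was added. At chromosome 5 from 172270651 to 172298750, a region of 28.1 kb held 7 members that filled 72.1% of it. The members were 6200, 3750, 750, 550, 6450, 550 and 2000 bp wide in that order, and the gaps ranged from 200 to 3600 bp. The acetylated length thus lay mostly in 3 wide blocks, with narrower regions between and beside them. The score was 0.001 in the widest block and 0.048, the highest of the list, in 1 of the members of 550 bp.

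The second, at chromosome 8 from 19169101 to 19190600, was 21.5 kb wide and held 6 members that filled 66.5%, with gaps of 150 to 2150 bp. Its outermost members lay 300 and 400 bp from the edges. The third, at chromosome 19 from 13152751 to 13179600, was 26.9 kb wide and held 6 members that filled 45.3%. There the acetylation stayed away from the ends, with 6000 bp free on the left and 4550 bp on the right.

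The fourth, at chromosome 2 from 91795051 to 91809800, was 14.8 kb wide and held 6 members of 900 to 1750 bp, and 2 more H3K27ac regions crossed its edges. Its members had scores of 0.014 to 0.032, none at 0.009 or less. Its first member lay 0.198 Mb from a stretch of 1 Mb or more without any region of either list. The fifth, at chromosome 17 from 72740001 to 72769850, was the widest of these at 29.9 kb and held 5 members that filled 74.5%, among them the third widest of all enclosed regions with 9800 bp.

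**Figure D4:**
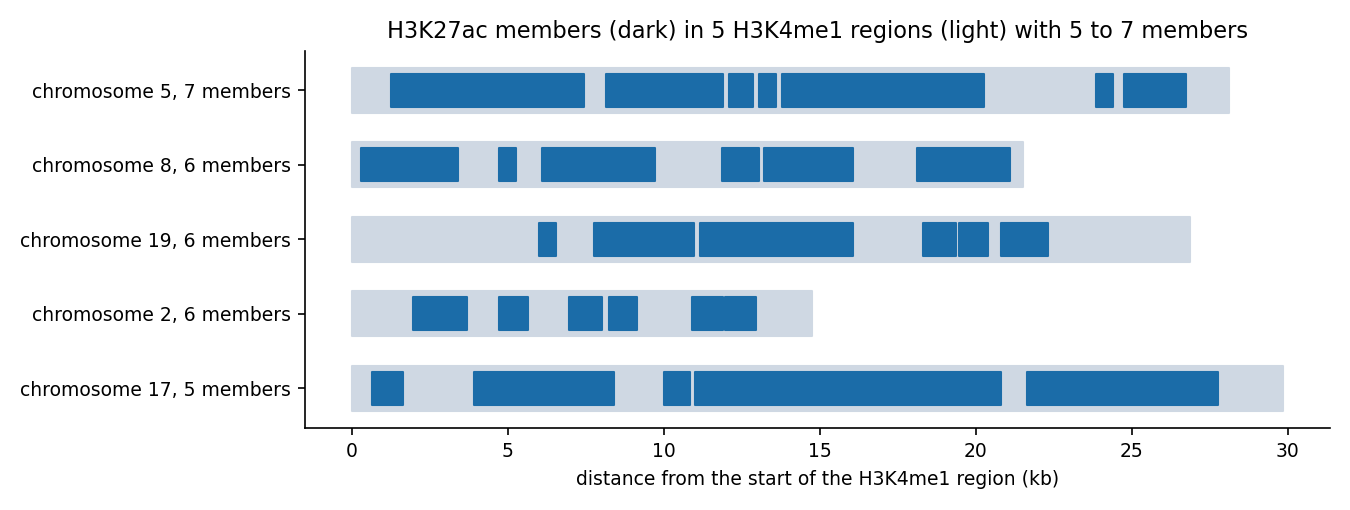
Layout of the 4 H3K4me1 regions (light bars) with 6 or 7 enclosed H3K27ac regions (dark blocks) and of the one with the greatest member length among the 15 tied at 5, by distance (kb) from the start of the H3K4me1 region. Members fill between 45.1% and 74.5% of the H3K4me1 length, and gaps as short as 50 bp occur in the region of chromosome 2.

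The widest enclosed regions differed in how closely they were framed. A region of 9850 bp at chromosome 7 from 36297201 to 36307050 lay in an H3K4me1 region of 11450 bp, with 50 bp free on the left and 1550 bp on the right. Another of 9850 bp, at chromosome 17 from 76167701 to 76177550, lay in 22750 bp of H3K4me1 and filled 43.3% of it. The region of 9700 bp at chromosome 22 from 41805651 to 41815350 filled 96.5% of its enclosure. The fifth widest, 9600 bp at chromosome 17 from 80481551 to 80491150, filled 55.0%. All 5 had a score of 0.001, the lowest of the list. That score was common at such widths, with 79.5% of enclosed and 77.7% of partly covered regions of 4 to 10 kb. On chromosome 17 lay 3 of the 5, a small count, and 1376 of all 23253 enclosed regions.

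Lone acetylated regions in very wide H3K4me1 were also found. The widest H3K4me1 regions with only 1 H3K27ac region were at chromosome 10 from 81158701 to 81174500 (15800 bp, 57.6% filled), chromosome 20 from 45939501 to 45954650 (15150 bp, 59.1% filled) and chromosome 9 from 137293001 to 137307200 (14200 bp, 46.1% filled). Farthest from any edge was a region of 3800 bp at chromosome 14 from 105946501 to 105950300. It had 18300 bp of H3K4me1 on its left and 14550 bp on its right, and shared the H3K4me1 region with 4 other members.

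The score is a value per region that the authors deposited without a name, and low values were taken as the more stringent. It is lower in wider regions, so it was compared within width classes. From 1 to 3 kb, a low score of 0.009 or less was somewhat more frequent in enclosed than in partly covered regions, and more frequent in both than in uncovered regions. At 1 to 1.5 kb, a score of 0.009 or less was found in 36.7% of enclosed regions (interval 35.5% to 37.98%), 31.2% of partly covered regions (30.0% to 32.3%) and 21.6% of uncovered regions (20.2% to 23.1%). At 1.5 to 2 kb the shares were 87.6%, 82.2% and 73.1%. Below 1 kb almost no region had such a score. There the median was 0.024 in all 3 groups, and the mean was 0.0257 in enclosed, 0.0251 in partly covered and 0.0268 in uncovered regions, so the enclosed regions did not have the lowest mean.

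When every group was given the widths of the enclosed regions, over the 53 widths of 550 to 3300 bp that had at least 10 regions in each group, the order was the same but the steps were small. Scores of 0.009 or less came to 54.0% for enclosed, 50.3% for partly covered and 46.7% for uncovered regions. Without regard to width the lowest score, 0.001, was less frequent among enclosed regions (11.7%) than among partly covered ones (19.7%), whose widths were greater. With scores at or below the list median in both lists, the enclosed value was 20.1%. Dropping the higher scores by itself raises this share, and the partly covered value under that cut was not computed. At 2 to 3 kb, over all scores, 0.001 was carried by 18.5% of enclosed regions (interval 17.4% to 19.7%) and 17.0% of partly covered ones (16.2% to 17.8%), and those intervals overlap.

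The enclosing H3K4me1 regions showed the same kind of difference in their own score. H3K4me1 scores of 0.003 or less were found in 86.8% of enclosing regions and 12.3% of regions without H3K27ac. The share was 44.6% of regions that met H3K27ac without enclosing a region under 10 kb. At equal widths the gap was far smaller. Over 87 widths of 750 to 5250 bp, the shares were 84.3%, 83.1% and 74.2%. Scores of 0.05 or more, found in 62 of 21245 enclosing regions (0.292%) and in 33.0% of H3K4me1 regions without H3K27ac, were not compared at equal width. Only 182 enclosing regions were under 1 kb, against 77466 regions without H3K27ac, whose median score at that width was 0.081.

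The scores of the 2 lists went together across enclosed regions. Among the 2726 enclosed regions with an H3K27ac score of 0.001, 99.3% lay in an H3K4me1 region with a score of 0.003 or less, against 63.0% of the 216 with a score of 0.048. Those at 0.001 had a median width of 3400 bp and enclosures of 5700 bp, and those at 0.048 had medians of 550 and 1950 bp, so width moved with both scores and its part in this was not tested. The enclosed share itself, pooled over widths, ranged from 28.4% of all regions at 0.001 (interval 27.5% to 29.3%) to 36.5% at 0.004 (34.0% to 39.1%).

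Enclosing H3K4me1 regions stood farther from the next H3K4me1 region than others that met H3K27ac. At 2 to 3 kb, the nearest H3K4me1 neighbour was a median of 1550 bp away for enclosing regions. It was 550 bp for those that met H3K27ac without enclosing a region under 10 kb and 1400 bp for those without H3K27ac. At 4 to 6 kb the medians were 850, 400 and 950 bp. An H3K27ac region that bridges a break in H3K4me1 is by definition only partly covered, which places such close neighbours in the second class. Of the 34163 partly covered regions, 12011 met 2 or more H3K4me1 regions, and these had a median width of 2800 bp. The enclosed regions themselves lay a median of 5100 bp from the next H3K27ac region, against 5850 bp for partly covered and 7900 bp for uncovered regions. These distances are pooled over widths and chromosomes, and the part of either was not tested.

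The enclosed share differed between chromosomes by more than counting error. It was highest on chromosome 19, at 51.0% (877 of 1719 regions, interval 48.6% to 53.4%), followed by chromosomes 17 (50.2%), 22 (49.4%), 16 (47.6%) and 20 (45.8%). The intervals of chromosomes 19, 17, 22 and 16 overlap. It was lowest on chromosome 18, at 18.9% (198 of 1048 regions, 16.6% to 21.4%), and on chromosomes 4 (19.2%), 13 (20.7%) and 6 (24.3%), and the intervals of chromosomes 18, 4 and 13 overlap. Among H3K27ac regions of 1 to 2 kb alone, the values were 56.8% on chromosome 19 (52.7% to 60.8%) and 21.8% on chromosome 18 (18.2% to 25.8%), so the difference was as large at like width.

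Chromosomes with a high enclosed share also had denser H3K4me1 and a greater mean H3K4me1 width. The mean H3K4me1 width was 1683 bp on chromosome 19 and 1298 bp on chromosome 18, and the density was 163 and 39.4 kb per Mb. The median H3K4me1 width was 1050 bp on both, and 1000 to 1150 bp on every autosome. Across the 22 autosomes, Spearman's rho of the enclosed share was 0.95 with the mean H3K4me1 width, 0.88 with the H3K4me1 density and 0.76 with the median H3K27ac width. These are descriptions across chromosomes of the same 2 libraries, which share depth and are not replicates, and wide H3K4me1 regions are what the rule needs. The share of enclosing regions with 2 or more members ranged from 3.37% on chromosome 13 to 11.5% on chromosome 17, and was 9.90% on chromosome 19 and 3.68% on chromosome 18. LNCaP has an abnormal karyotype, and the part of copy number was not tested.

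**Figure D5:**
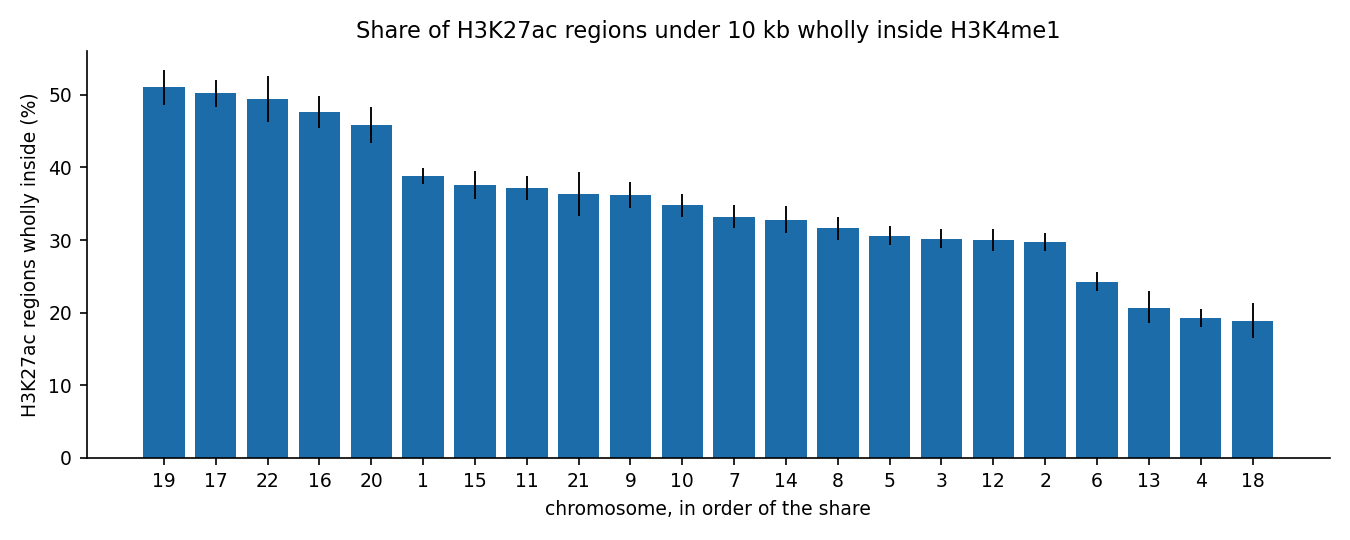
Share (%) of the H3K27ac regions under 10 kb on each autosome that lay wholly inside H3K4me1, in order of the share, with exact 95% intervals over regions. Chromosome 19 is highest at 51.0% and chromosome 18 lowest at 18.9%.

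A small set of enclosed regions coincided exactly with their H3K4me1 region. Touching an edge was uncommon, with 1596 enclosed regions (6.86%) flush at 1 edge and 91 (0.391%) flush at both. The 91 exact matches ranged from 550 to 9450 bp in width, with a median of 1250 bp. The widest were at chromosome 19 from 27731351 to 27740800 (9450 bp), chromosome 1 from 121481851 to 121486000 (4150 bp) and chromosome 14 from 91204701 to 91208000 (3300 bp). The first 2 each bordered directly on a stretch of 1 Mb or more that held no region of either list.

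That setting was frequent among exact matches. There were 26 such empty stretches between regions, on 19 of the 22 autosomes, and 33 of the 91 exact matches lay within 1 Mb of one (36.3%, interval 26.4% to 47.0%). The share was 4.57% of regions flush at 1 edge, 0.988% of those flush at none and 1.004% of partly covered regions. The lowest H3K4me1 score, 0.001, was likewise rare, with 15 autosomal regions, of which 14 enclosed at least 1 H3K27ac region. H3K27ac covered a median of 96.4% of these 15 (range 50.9% to 100%), and 6 of them lay within 1 Mb of an empty stretch. The longest empty stretch, of 21.0 Mb, ran at chromosome 1 from 121486001 to 142535100. Whether the stretches are gaps in the genome build was not checked. The input was not analysed, so whether reads also pile up beside them without an antibody is unknown. Exact matches there need not be marks of equal extent. The nearness of such stretches moved with exact matching, and its part was not tested.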

How the data were processed

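ChIP-seq of H3K27ac and of H3K4me1 in LNCaP cells gave 1 deposited list of regions each. Per the submitters' processing notes, Bowtie 0.12.8 was used with build hg19. How regions were called, and whether against the input, is not given in the sources used here. Those settings fix how wide a region is and hence what can enclose what. The lists have no header. The authors' deposited score takes 12 values from 0.001 to 0.048 for H3K27ac and 13 values from 0.001 to 0.093 for H3K4me1, its meaning is not stated, and it served only to rank regions within a list. The other deposited columns are positions in bp.

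Starts were read as 0-based and are printed counted from 1. All starts and ends lie on a grid of 50 bp, regions of a list do not overlap, the narrowest is 550 bp, and H3K4me1 regions are at least 50 bp apart. Covered bases were summed per H3K27ac region, and the enclosing region, flanks and midpoint were read from the H3K4me1 list. Intervals are exact Clopper-Pearson 95% intervals. The even spread is the share of grid positions open to each region. Containment was checked on simulated data with known answers. Members and comparisons were chosen with earlier results of these data known, and the empty stretches after seeing the values. Named regions follow a fixed rule: the 5 enclosing regions with the most members (ties by greater member length), the 5 widest members, the 3 widest enclosures with 1 H3K27ac region, the 3 widest members flush at both edges, and the members farthest from an edge. Genes were not assigned and sequences not printed, since the reference tables are of another build. Tools were Python 3.11.15, matplotlib 3.10.9, scipy 1.17.1, pandas 2.3.3 and numpy 2.4.6.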

Additional observations from a re-analysis of the deposited data

How the results depend on the processing

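Of 42 values under 6 alternatives, 19 left the 95% interval of the value as reported. With scores at or below the list median (0.009 for H3K27ac, 0.008 for H3K4me1), the median enclosing width was 3650 bp, 92.2% of members had their midpoint between 25% and 75%, 5.85% of enclosing regions held 2 or more members, 20.1% of members had the lowest H3K27ac score, 95.5% of enclosing regions had an H3K4me1 score of 0.003 or less, and the median fill was 58.5%. With H3K4me1 regions within 500 bp merged, the enclosed share was 42.9%, the median enclosing width 3500 bp, the central share 83.7%, the share with 2 or more members 12.3%, the lowest H3K27ac score 13.9%, the low H3K4me1 score 84.9% and the fill 44.4%. With at least 90% of the region inside 1 H3K4me1 region, the values were 39.3% enclosed, 2900 bp, 7.51% with 2 or more members, 13.2% at the lowest H3K27ac score, 85.2% at the low H3K4me1 score and 54.0% fill. Joining across short breaks in H3K4me1, or allowing a small part of a region outside it, thus raised the enclosed share from 33.8%. No value left its interval without the width limit, with H3K4me1 scores under 0.05, or without regions within 1 Mb of an empty stretch, a setting added after seeing the data. No paired analysis was possible because the labels give 1 library for each mark. Depth is unknown, so a break between H3K4me1 regions need not be a loss of the mark.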

Other observations

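On chromosome X, which the autosomal rule leaves out, 180 of 1737 H3K27ac regions under 10 kb (10.4%, exact 95% interval 8.97% to 11.9%) lay wholly inside H3K4me1. That is below the lowest autosome, chromosome 18, at 18.9%. On chromosome Y it was 49 of 172 regions (28.5%, 21.9% to 35.9%), within the autosomal range. The enclosed regions of X had a median width of 1250 bp and lay in H3K4me1 regions with a median of 2350 bp. The part of copy number and depth in this was not tested.

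The 15 autosomal H3K4me1 regions with the lowest score, 0.001, were 1550 to 29450 bp wide. At chromosome 10 from 46987351 to 47009350, 22000 bp of H3K4me1 held 5 enclosed H3K27ac regions that covered 59.8% of it. At chromosome 6 from 58773251 to 58780400, bordering on an empty stretch, 1 enclosed region covered 97.2% of 7150 bp.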
